A study of Rattus norvegicus with 18 samples.

Results

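Notch signalling passes between touching cells. A ligand of the Jagged or Delta-like family on one cell binds a Notch receptor on its neighbour, proteases cut the receptor, and its intracellular part enters the nucleus, joins the DNA-binding protein Rbpj and switches on genes of the HES and HEY families, which encode transcriptional repressors. In bone marrow the pathway is known for holding mesenchymal progenitors back from osteoblast differentiation. The genes described here are 9 of the 32623 genes in the deposited tables, chosen by name: the receptors Notch1, Notch2 and Notch3, the ligands Jag1 and Dll1, and the targets Hes1, Hey1, Hey2 and Heyl, each of which had 1 line in the WT table and 1 in the KO table.

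RNA-seq was taken from bone marrow mesenchymal stem cells (MSCs) of 2-month-old SD rats, either wild type (WT) or miR-337-/- (KO), cultured to passage 3. Cells of each genotype were starved of serum for 8 h (SSt), and further cells then received serum (FBS) or 10% cyclic mechanical stretch (CMS). The labels give 24 h for both treatments, while the study's methods give a shorter time for the sequencing experiment. The SSt libraries are listed with the same times. Whether SSt cells were taken after 8 h or kept without serum for the further time is not stated. Each of the 6 groups held 3 libraries, and nothing in the labels says whether these came from separate animals or cultures, so p-values measure the spread between these libraries, which may be technical. All WT libraries were in one table and all KO libraries in another, so genotype, animals and table cannot be told apart in a comparison of KO with WT. The microRNA removed in the KO animals, miR-337, acts through its seed, bases 2 to 8, in capitals in the mature rat sequence (RefSeq, GRCr8, chr6:134321201-134321223, plus strand), which is shown because its loss defines the KO groups.
rno-miR-337-3p: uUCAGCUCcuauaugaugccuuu
The line for the miR-337 gene held 0 counts in all 18 libraries, WT libraries included, so these files do not check the knockout.

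Depth ran from 56.08 to 71.85 M counts per library. Of 9 MSC markers, 8 were at measurable levels in every group, but Lepr, which the study used to define its MSCs, was at 0 counts in 13 of 18 libraries and reached at most 0.07 FPKM (a level corrected for transcript length and library depth). All 10 macrophage markers were present, with a summed level of 4016 to 4148 FPKM in WT SSt and 6519 to 7167 in WT FBS and CMS. The sum was 2325 to 2431 FPKM in KO SSt and 4556 to 5497 in KO FBS and CMS. The 9 pericyte and smooth muscle markers summed to 276 to 306 FPKM in WT SSt and 525 to 609 in KO SSt, against 79.8 to 151 in the other groups, with Rgs5 at 0 everywhere. The 7 endothelial markers found summed to between 9.24 and 16.1 FPKM in every library, with Emcn at 0. The summed level of 5 markers of dividing cells was highest in the libraries labelled SSt, at 148 to 158 FPKM in WT and 265 to 299 in KO. It was 76.4 to 81.6 in WT FBS and CMS and 16 to 66.4 in KO FBS and CMS. This order of RNA levels goes against the quiescence that serum starvation is meant to give, though Mki67 was only 1.17-fold lower in WT FBS than in WT SSt. The study measured proliferation itself by EdU uptake and reported that its starved MSCs divided slowly. KO FBS replicate 1 was unlike the 2 remaining libraries of its group, with a mean correlation of 0.975 to them and a dividing-cell sum of 23 FPKM against 60.9 and 66.4. Many of the results that rest on this library are also given without it. In bulk RNA, fewer cells of a type and less RNA per cell cannot be told apart, and the part of these marker shifts in the results on Notch genes was not tested.

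Ranked by mean FPKM over the groups, Notch2 stood far above the other 8 genes, at 44 to 52.7 FPKM. Notch1 (3.02 to 9.12), Jag1 (1.45 to 5.58) and Hes1 (2.32 to 5.36) came next, and Dll1 lay between 0.323 and 1.35. The remaining 4 genes were close to the limit of detection, with group means of at most 0.153 FPKM for Notch3 and 0.114 for Hey2, the highest of the HEY genes. A gene was tested if 3 or more libraries of the fit reached an FPKM of 1. Notch1, Notch2, Jag1 and Hes1 passed in both genotypes. Dll1 passed in the KO fit and in the fit of all 18 libraries, and did so only through the KO FBS libraries, where it was highest, so its values are also given from a fit with no filter. Notch3, Hey1, Hey2 and Heyl never passed and have values from the fit with no filter only.

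**Figure D1:**
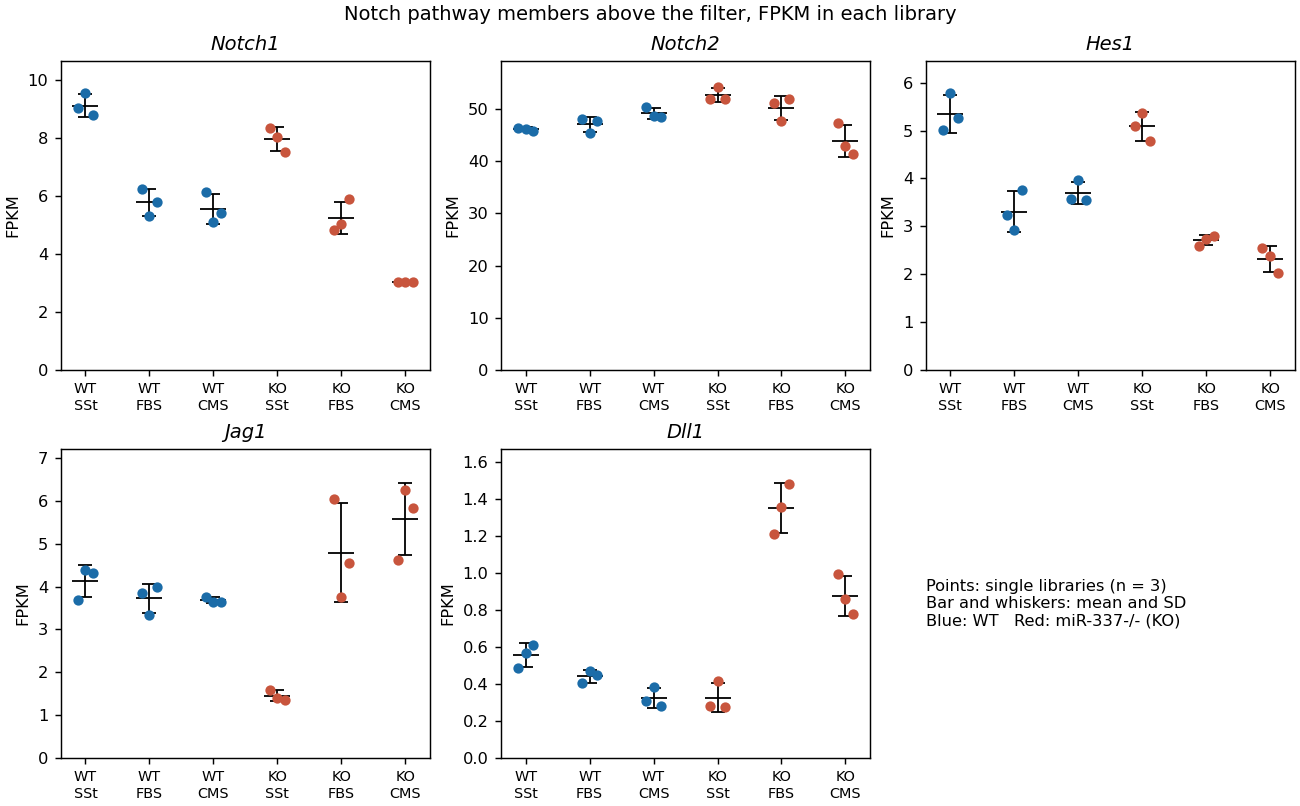
FPKM (vertical axes, linear, from 0) of the 5 more abundant genes in each library (points), with the mean and SD of 3 libraries per group (bars and whiskers), WT in blue and KO in red. Notch2 stays between 41.5 and 54.2 FPKM in all libraries, Notch1 and Hes1 are highest in SSt in both genotypes, and Jag1 and Dll1 are higher in FBS and CMS than in SSt in the KO libraries.

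The promoters of the 9 genes were searched for TGGGAA, the core of the sequence that Rbpj binds, on both strands, and for the longer GTGGGAA that contains it. RefSeq promoters (GRCr8, 250 bases before to 50 after the start) were given for 8 of the 9 genes, all but Hey1. TGGGAA was found in 4 of them, Hes1, Dll1, Hey2 and Notch3, and not in those of Notch1, Notch2, Jag1 and Heyl. For scale, 25.7% of 33469 rat promoters hold it at least once, and 3.85% hold it 2 times or more, as those of Hes1, Dll1 and Hey2 do. GTGGGAA was found 1 time in each of the same 3 promoters and in 6.29% of all promoters. Hes1 carries both matches in one orientation within a single window of 30 bases (chr11:84213144-84213173, minus strand), 123 and 109 bases before the start. Dll1 has one match 185 bases before the start on the opposite strand, where it reads TTCCCA (chr1:64993442-64993471, minus strand), and another 82 bases before the start (chr1:64993339-64993368, minus strand). These windows are shown because Hes1 is the one target gene with enough reads to test and Dll1 is a ligand that rose in KO. Capitals mark the matches, each of which is a match of letters and not a measured binding site.
Hes1: tactgTGGGAAagaaagttTGGGAAgtttc
Dll1, far match: acctccagcccgTTCCCAccgtgcccctcg
Dll1, near match: tgcaagctctctTGGGAAttaagctgaaca

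Among the receptors, Notch1 fell in FBS and in CMS in both genotypes, and fell furthest in KO CMS. In WT libraries Notch1 (ENSRNOG00000019322) was at 9.03, 9.54 and 8.79 FPKM in SSt, at 6.23, 5.30 and 5.80 in FBS, and at 6.12, 5.11 and 5.41 in CMS. In KO libraries it was at 8.33, 8.02 and 7.53 FPKM in SSt, at 4.81, 5.02 and 5.88 in FBS, and at 3.01, 3.02 and 3.03 in CMS. Every SSt library lay above every FBS and CMS library of either genotype, and the KO CMS libraries lay below all others. In the order of group means, WT FBS, WT CMS and KO FBS overlapped with their neighbours, and the other neighbouring groups did not.

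The fitted change of Notch1 in WT was a log2 fold change of -0.69 ± 0.08 (SE) for FBS over SSt, 1.62-fold lower (edgeR quasi-likelihood test, Benjamini-Hochberg adjusted p = 2.12e-05, n = 3 libraries per group). For CMS over SSt it was -0.74 ± 0.08 (adjusted p = 1.28e-05). In KO it was -0.55 ± 0.07 for FBS (adjusted p = 0.000231) and -1.29 ± 0.07 for CMS, 2.44-fold lower (adjusted p = 1.36e-06). Without KO FBS replicate 1 the FBS value was -0.51 ± 0.08 (adjusted p = 0.000596). The FBS and CMS comparisons share their SSt libraries. KO CMS was also lower than KO FBS, by a log2 fold change of -0.74 ± 0.07 (adjusted p = 0.000665). WT CMS and WT FBS differed by less than the spread between libraries (-0.05 ± 0.08, adjusted p = 0.763). The CMS response was the one that differed between genotypes: the WT response minus the KO response was 0.54 ± 0.11 (adjusted p = 0.000952), against -0.16 ± 0.11 for FBS (adjusted p = 0.276). KO lay below WT by a log2 fold change of -0.81 ± 0.08 in CMS (adjusted p = 1.83e-06) and -0.27 ± 0.08 in SSt (adjusted p = 0.00965). The SSt difference missed the threshold with library totals in place of TMM scaling (-0.20, adjusted p = 0.053).

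Notch2 (ENSRNOG00000018835) was the dominant receptor in every library. It was at 46.5, 46.3 and 45.8 FPKM in WT SSt, at 48.2, 45.4 and 47.7 in WT FBS, and at 50.5, 48.7 and 48.6 in WT CMS. In KO it was at 52.0, 54.2 and 51.9 FPKM in SSt, at 51.3, 47.7 and 51.9 in FBS, and at 47.4, 43.0 and 41.5 in CMS. The WT CMS libraries lay above the other WT libraries and the KO SSt libraries above the KO CMS libraries, with gaps that are small against the level itself. None of the 4 comparisons with SSt passed the test, with log2 fold changes of -0.01 ± 0.03 and 0.07 ± 0.03 in WT (adjusted p = 0.813 and 0.0635). They were -0.01 ± 0.06 and -0.15 ± 0.06 in KO (adjusted p = 0.925 and 0.0549), FBS first in each pair. The KO CMS value passed the test without KO FBS replicate 1 (-0.15 ± 0.05, adjusted p = 0.0372), as it did without KO FBS replicate 2 or KO CMS replicate 1 (adjusted p = 0.0423 and 0.0166) and with DESeq2 (adjusted p = 0.0439). With library totals in place of TMM scaling the KO CMS value was -0.26 (adjusted p = 0.00407), while the median of all tested genes stood at -0.11, and the WT CMS value was 0.09 (adjusted p = 0.0156). The CMS response differed between genotypes by 0.21 ± 0.07 (WT minus KO, adjusted p = 0.0183). This difference missed the threshold when no filter was used (0.18, adjusted p = 0.0557) and without KO CMS replicate 3 (0.18, adjusted p = 0.056). Differences of KO from WT were -0.10 ± 0.05 to 0.13 ± 0.05 on the log2 scale and none passed the test (adjusted p from 0.06 to 0.123). The SSt difference, 0.12 in each of these fits, passed without KO FBS replicate 1 (adjusted p = 0.0408), KO FBS replicate 2 (adjusted p = 0.0356) or KO CMS replicate 1 (adjusted p = 0.029), and with DESeq2 (adjusted p = 0.0475). With library totals the SSt and CMS differences were 0.19 and -0.17 (adjusted p = 0.00336 and 0.00947). The medians of all tested genes then stood at 0.09 and -0.08. Both differences also passed with limma at either pseudocount. The CMS difference passed without KO CMS replicate 1 (-0.15, adjusted p = 0.0185). The FBS difference passed without KO FBS replicate 2 (0.18, adjusted p = 0.0146) or KO CMS replicate 1 (0.13, adjusted p = 0.0299).

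The make-up of the receptor pool shifted between SSt and the other groups. Notch2 supplied 83% ± 0.572 (SD, n = 3) of the summed FPKM of Notch1 to Notch4 in WT SSt, 88.7% ± 0.513 in WT FBS and 89.6% ± 0.623 in WT CMS. In KO its share was 86.4% ± 0.608 in SSt, 90.2% ± 0.924 in FBS and 93.2% ± 0.451 in CMS. Within each genotype the SSt libraries did not overlap with the others in this share. Notch1 was 19.7% ± 0.778 of Notch2 in FPKM in WT SSt and 6.89% ± 0.493 in KO CMS.

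Notch3 (ENSRNOG00000004346), a receptor best known from vascular smooth muscle, was rare. It had 12, 30 and 8 counts in the WT SSt libraries, 75, 87 and 56 in WT FBS, and 28, 39 and 92 in WT CMS. It had 26, 34 and 30 counts in KO SSt, 53, 51 and 75 in KO FBS, and 58, 54 and 74 in KO CMS. The FBS libraries lay above the SSt libraries in both genotypes, as did the KO CMS libraries, while 1 WT CMS library fell within the WT SSt range in counts (28) and lay above it in FPKM (0.0605, against 0.0138 to 0.056 in WT SSt). In the fit with no filter Notch3 rose in WT FBS by a log2 fold change of 2.20 ± 0.55 (adjusted p = 0.00705), and in WT CMS by 1.80 ± 0.55 (adjusted p = 0.0202). It rose in KO FBS by 1.10 ± 0.30 (adjusted p = 0.0153) and in KO CMS by 1.14 ± 0.30 (adjusted p = 0.0122). The WT CMS call rested on few reads and was lost without any one of WT SSt replicates 1 or 3 or WT CMS replicate 3 (adjusted p from 0.0622 to 0.106). The KO FBS call was lost without KO FBS replicate 3 (adjusted p = 0.0669). Of 5 comparisons between the genotypes 0 passed the test for Notch3, also at an unadjusted p under 0.05 and with DESeq2. KO against WT in SSt did pass without WT SSt replicate 2 (1.62 ± 0.48, adjusted p = 0.0216). Where Notch3 rose, the summed pericyte and smooth muscle markers were lower, at 276 to 306 FPKM in WT SSt against 79.8 to 114 in WT FBS and CMS. In KO the sum was 525 to 609 FPKM in SSt, 117 to 151 in FBS and 87 to 92.4 in CMS. Tagln made up most of the WT sum, at a mean of 246 FPKM in WT SSt and 83.2 in WT FBS. Cspg4, Mcam, Cnn1 and Des also fell in WT FBS and CMS. Myh11 passed the test in neither (0.01 and 0.17), and Acta2 fell in CMS (-0.43, adjusted p = 0.0219) but not in FBS (-0.12, adjusted p = 0.485). In KO, Tagln, Cspg4, Cnn1, Des and Acta2 fell in both treatments. Myh11 rose in KO CMS (0.95, adjusted p = 0.00444) and did not pass in KO FBS (0.42, adjusted p = 0.125). The part of these markers in the Notch3 values was not tested.

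**Figure D2:**
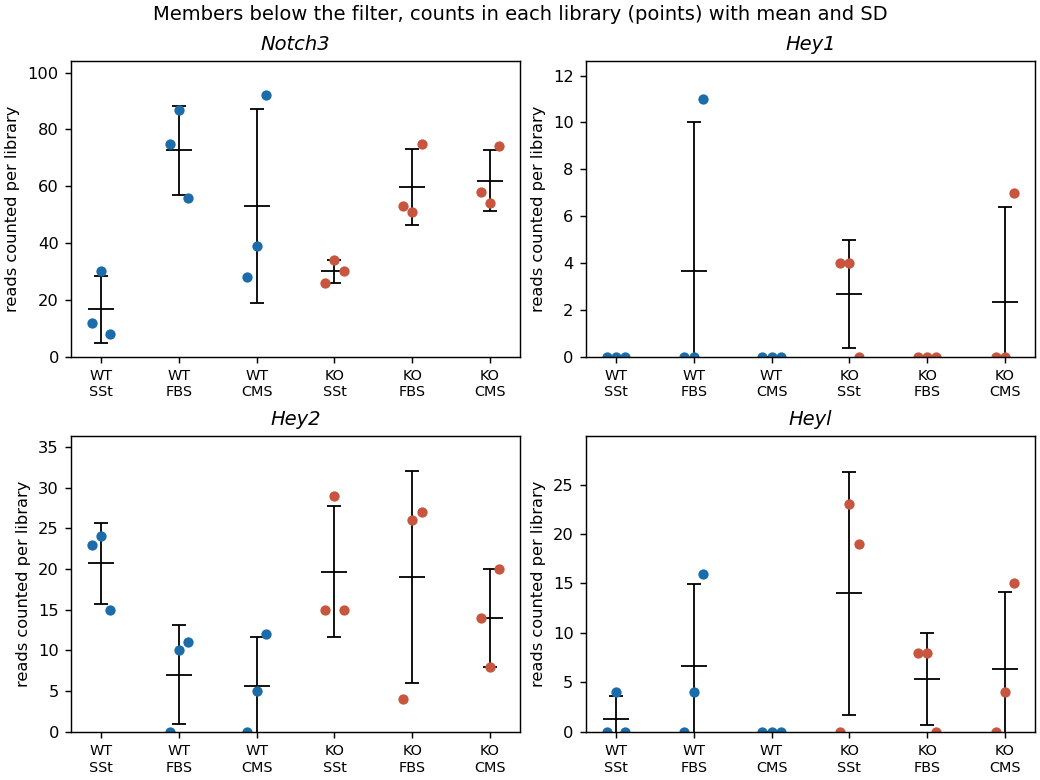
Reads counted per library (vertical axes, linear, from 0) for the 4 genes that did not pass the filter, as points with the mean and SD of 3 libraries per group. Notch3 reaches 92 counts at most, and Hey1, Hey2 and Heyl stay at 29 counts or fewer, with many libraries at 0.

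The fitted difference between WT and KO responses was larger for the ligand Jag1 than for Notch1, Notch2 and Hes1. Jag1 (ENSRNOG00000007443), a Jagged ligand that is membrane bound, was at 3.69, 4.39 and 4.31 FPKM in WT SSt, at 3.85, 3.34 and 3.98 in WT FBS, and at 3.76, 3.65 and 3.65 in WT CMS. In KO it was at 1.59, 1.39 and 1.36 FPKM in SSt, at 6.04, 3.76 and 4.56 in FBS, and at 4.63, 6.26 and 5.84 in CMS. The 3 KO SSt libraries lay below all 15 others, and the WT groups overlapped with each other and with KO FBS. The highest KO FBS value belonged to replicate 1, the library that was unlike its group.

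In WT, Jag1 was at a log2 fold change of -0.19 ± 0.08 over SSt after either treatment and passed the test in neither (adjusted p = 0.0752 for FBS and 0.0709 for CMS). Both passed with DESeq2 (-0.19 and -0.20, adjusted p = 0.049 and 0.0372) and without WT SSt replicate 1 (-0.27 in each, adjusted p = 0.015 and 0.0138). The CMS value also passed without WT FBS replicate 2 (adjusted p = 0.0403). In KO it rose by 1.79 ± 0.20 in FBS, 3.46-fold (adjusted p = 6.7e-05), and by 2.06 ± 0.20 in CMS, 4.16-fold (adjusted p = 2.46e-05). Without KO FBS replicate 1 the rise in FBS was 1.56 ± 0.15 (adjusted p = 3.11e-05). The WT response minus the KO response was -1.99 ± 0.22 for FBS (adjusted p = 1.31e-05) and -2.25 ± 0.22 for CMS (adjusted p = 2.22e-06). Without that library it was -1.76 ± 0.17 for FBS (adjusted p = 2.79e-06). KO lay 3-fold below WT in SSt (log2 fold change -1.59 ± 0.16, adjusted p = 1.52e-06). It lay 1.58-fold above WT in CMS (0.66 ± 0.15, adjusted p = 0.00307) and differed by 0.40 ± 0.15 in FBS (adjusted p = 0.0687). The FBS value was 0.17 ± 0.13 without KO FBS replicate 1 (adjusted p = 0.384), and it passed without KO FBS replicate 2 (0.56, adjusted p = 0.0117) and with DESeq2 (adjusted p = 0.0397). KO CMS and KO FBS differed by 0.27 ± 0.19 (adjusted p = 0.393). This value became 0.49 ± 0.15 and passed the test (adjusted p = 0.0429) without KO FBS replicate 1. Summed macrophage markers were also lowest in SSt within KO, at 2325 to 2431 FPKM against 4732 to 5497 in FBS and 4556 to 4949 in CMS. The sum was also higher in WT FBS and CMS, going from 4016 to 4148 FPKM to 6519 to 7167, where Jag1 did not pass the test. Lyz2 made up most of the sum, at a mean of 2300 FPKM in WT SSt and 4990 in WT FBS. Ptprc, Cd68, Csf1r, Tyrobp and Fcer1g rose with it in WT FBS and CMS, but Cd14 and Adgre1 fell in both. Itgam and Aif1 fell in WT CMS. In KO, Lyz2, Ptprc, Cd68, Tyrobp, Fcer1g, Itgam and Adgre1 rose in both treatments, Adgre1 by a log2 fold change of 4.62 in CMS. Cd14 and Aif1 rose in KO FBS, where Csf1r did not pass the test. In KO CMS Csf1r and Aif1 fell and Cd14 did not pass. In SSt all of these markers but Csf1r were lower in KO than in WT, and Csf1r did not pass (-0.19, adjusted p = 0.186). The part of macrophage markers in the result was not tested.

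Dll1 (ENSRNOG00000059984), a Delta-like ligand, was less abundant than Jag1 in FPKM, rose in KO with both treatments and did not rise in WT. It was at 0.488, 0.569 and 0.613 FPKM in WT SSt, at 0.404, 0.470 and 0.449 in WT FBS, and at 0.308, 0.383 and 0.280 in WT CMS. In KO it was at 0.282, 0.417 and 0.276 FPKM in SSt, at 1.21, 1.36 and 1.48 in FBS, and at 0.994, 0.859 and 0.777 in CMS. The KO FBS libraries were the highest, the KO CMS libraries came next without overlap, and no other library exceeded 0.613 FPKM. These levels stand for 65 to 167 counts in WT and KO SSt libraries and for 190 to 328 in KO FBS and CMS.

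In KO, Dll1 rose by a log2 fold change of 2.10 ± 0.20 in FBS, 4.29-fold (adjusted p = 3.26e-05), and by 1.53 ± 0.20 in CMS, 2.89-fold (adjusted p = 0.000167). Without KO FBS replicate 1 the FBS value was 2.15 ± 0.22 (adjusted p = 5.95e-05). With no filter the FBS and CMS values were 2.08 ± 0.21 (adjusted p = 3.49e-05) and 1.52 ± 0.20 (adjusted p = 0.000208). In WT, where only the fit with no filter gives a value, Dll1 fell in CMS by a log2 fold change of -0.82 ± 0.21 (adjusted p = 0.0068) and was at -0.39 ± 0.20 in FBS (adjusted p = 0.151). The WT response minus the KO response was -2.48 ± 0.26 for FBS (adjusted p = 8.12e-06) and -2.33 ± 0.26 for CMS (adjusted p = 6.07e-06). With no filter these differences were -2.49 ± 0.27 (adjusted p = 1.02e-05) and -2.36 ± 0.27 (adjusted p = 7.23e-06). KO lay below WT in SSt by a log2 fold change of -0.84 ± 0.18 (adjusted p = 0.00159). It lay above WT by 1.64 ± 0.18 in FBS (adjusted p = 1.27e-05) and 1.49 ± 0.19 in CMS (adjusted p = 1.74e-05). With no filter the 3 values were -0.85 ± 0.19, 1.63 ± 0.19 and 1.51 ± 0.19 (adjusted p = 0.00279, 2.14e-05 and 2.51e-05). Without KO FBS replicate 1 KO lay above WT in FBS by 1.69 ± 0.20 (adjusted p = 3.16e-05). The FBS responses then differed by -2.53 ± 0.28 (adjusted p = 8.27e-06). KO CMS was at -0.57 ± 0.19 against KO FBS (adjusted p = 0.0808), and passed with DESeq2 (-0.57, adjusted p = 0.0304).

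The balance of ligand and receptor transcripts moved over a wider range in KO than in WT libraries. Jag1 was 45.3% ± 4.13 (SD, n = 3) of Notch1 in FPKM in WT SSt, 64.5% ± 3.74 in WT FBS and 66.8% ± 5.03 in WT CMS. In KO it went from 18.2% ± 0.928 in SSt to 92.7% ± 28.5 in FBS and 185% ± 27.6 in CMS, with library values of 154%, 207% and 193% in the last. KO CMS was the only group in which the ligand Jag1 exceeded the receptor Notch1 in every library, and KO FBS replicate 1 did so too, at 126%.

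Of the targets, Hes1 was the one with enough reads to follow, and it fell in FBS and CMS in both genotypes. Hes1 (ENSRNOG00000001720), a basic helix-loop-helix repressor and the classical target of activated Notch, was at 5.01, 5.79 and 5.27 FPKM in WT SSt, at 3.24, 2.92 and 3.76 in WT FBS, and at 3.57, 3.96 and 3.56 in WT CMS. In KO it was at 5.10, 5.38 and 4.79 FPKM in SSt, at 2.59, 2.74 and 2.79 in FBS, and at 2.54, 2.38 and 2.02 in CMS. The SSt libraries of both genotypes overlapped with each other and lay above all FBS and CMS libraries, and the KO FBS and KO CMS libraries lay below all WT libraries.

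Hes1 fell in WT, with a log2 fold change of -0.73 ± 0.13 in FBS, 1.66-fold (adjusted p = 0.000581), and -0.56 ± 0.13 in CMS (adjusted p = 0.00319). In KO its change was -0.85 ± 0.13 in FBS (adjusted p = 0.000424) and -1.02 ± 0.13 in CMS, 2.03-fold (adjusted p = 0.000124). Without KO FBS replicate 1 the FBS value was -0.84 ± 0.15 (adjusted p = 0.00152). CMS did not differ from FBS beyond the spread in WT (0.17 ± 0.13, adjusted p = 0.455) or KO (-0.17 ± 0.13, adjusted p = 0.405). The CMS response differed between genotypes by 0.46 ± 0.16 (adjusted p = 0.0322). This call was lost with no filter (0.43, adjusted p = 0.079) and in 6 of the fits that leave out 1 library (adjusted p from 0.053 to 0.087). KO lay below WT in CMS by -0.61 ± 0.12 (adjusted p = 0.000735). The values were -0.15 ± 0.12 in SSt (adjusted p = 0.313) and -0.25 ± 0.12 in FBS (adjusted p = 0.129). The summed markers of dividing cells were, like Hes1 and Notch1, highest in SSt in both genotypes, at 148 to 158 FPKM in WT and 265 to 299 in KO, and their part in these results was not tested. Hes1, with 2 TGGGAA matches in the promoter window shown above, and Notch1, with none, both fell. Dll1, also with 2, and Jag1, with none, rose in KO, and Notch3, with 1, rose in both genotypes on few reads. The part of these matches in the changes was not tested.

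The HEY genes, repressors of the same superfamily that are prominent in heart and vessels, were at the limit of what this depth can show. Hey1 (ENSRNOG00000011593) had 0, 0 and 0 counts in WT SSt, 0, 0 and 11 in WT FBS, and 0, 0 and 0 in WT CMS. It had 4, 4 and 0 counts in KO SSt, 0, 0 and 0 in KO FBS, and 0, 0 and 7 in KO CMS. A count of 0 in a library allows up to 3 counts, or 0.0401 to 0.0514 FPKM for Hey1, and covers counting error only. Hey2 (ENSRNOG00000013364) had 23, 24 and 15 counts in WT SSt, 0, 10 and 11 in WT FBS, and 0, 5 and 12 in WT CMS. Its KO libraries held 15, 29 and 15 counts in SSt, 4, 26 and 27 in FBS, and 14, 8 and 20 in CMS. The WT SSt libraries of Hey2 lay above the other WT libraries and within the KO range, and the fitted log2 fold change was -1.48 ± 1.25 in WT FBS (adjusted p = 0.375) and -1.72 ± 1.26 in WT CMS (adjusted p = 0.308). Heyl (ENSRNOG00000015318) had 0, 4 and 0 counts in WT SSt, 0, 4 and 16 in WT FBS, and 0, 0 and 0 in WT CMS. In KO it had 0, 23 and 19 in SSt, 8, 8 and 0 in FBS, and 0, 4 and 15 in CMS. Over Hey1, Hey2 and Heyl and all 11 comparisons, 0 of 33 values passed the test with no filter (edgeR), 3 had an unadjusted p under 0.05, and with DESeq2 0 passed and 1 had an unadjusted p under 0.05. No difference was detectable for them at this depth.

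**Figure D3:**
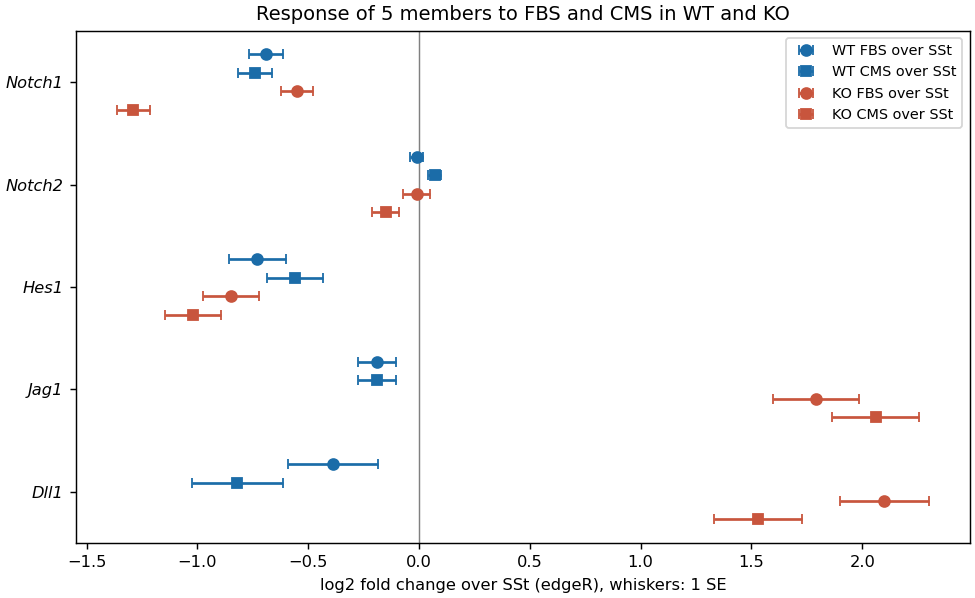
Log2 fold change over SSt (horizontal axis, edgeR, whiskers 1 SE, n = 3 libraries per group) of the 5 more abundant genes, circles for FBS and squares for CMS, WT in blue and KO in red; the WT values of Dll1 come from the fit with no filter. Notch1 and Hes1 lie below 0 in all 4 comparisons, Notch2 near 0, and Jag1 and Dll1 lie above 0 in KO and below 0 in WT.

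These calls stand beside a large background, since most tested genes changed between SSt and the other groups. In WT FBS 2 of the 4 tested Notch genes passed, against 66.4% of 12916 tested genes, and in WT CMS 2 of 4 against 66.8%. In KO FBS 4 of 5 passed against 59.8% of 12888 genes, and in KO CMS 4 of 5 against 61.5%. With a fold of at least 2 added, 0 of 4 passed in WT FBS and in WT CMS, where the background was 16.1% and 16.7%. In KO 2 of 5 passed in FBS and 4 of 5 in CMS, where it was 17.1% and 19.2%. With no filter, 3 of 9 passed in WT FBS and 4 of 9 in WT CMS (45.5% of 20184 genes in each), and 5 of 9 in KO FBS and in KO CMS (39.4% and 40.4% of 20087). Between CMS and FBS 0 of 4 passed in WT with edgeR, DESeq2 or limma, where the background was 8.94%. At an unadjusted p under 0.05, 1 of the 4 passed in WT with edgeR and with DESeq2, Notch2, and 0 with limma. In KO 1 of 5 passed, Notch1, against a background of 14.8%. The FBS response differed between genotypes for 2 of 5 genes (background 35.7% of 13317) and the CMS response for 5 of 5 (background 44.8%). KO differed from WT for 3 of 5 genes in SSt, 1 of 5 in FBS and 4 of 5 in CMS, where 47.4%, 25.7% and 39.7% of all tested genes did. Dll1, counted among the 5, had passed the filter through the KO FBS libraries. Over Notch1, Notch2, Jag1 and Hes1 alone, 3 of 4 passed in KO FBS and in KO CMS, 1 of 4 in the FBS response and 4 of 4 in the CMS response. At a fold of at least 2 these were Jag1 in KO FBS, and Notch1, Jag1 and Hes1 in KO CMS. Of the same 4 genes, 2 were lower in KO than in WT in SSt and 0 differed in FBS. In CMS 1 was higher and 2 were lower in KO. The FBS call between the genotypes was Dll1.

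The rest of the pathway was described over 53 further genes, of which 51 were in the tables and 37 passed the filter. In FBS over SSt 17 rose, 10 fell and 10 did not pass in WT, with a median log2 fold change of 0.08 against 0.01 over all tested genes, of which 33.7% rose and 32.7% fell. In KO 19 rose, 5 fell and 13 did not pass, with a median of 0.21 against 0.02 over all genes, of which 30.3% rose and 29.5% fell. In CMS over SSt 15 rose, 12 fell and 10 did not pass in WT, with a median of 0.09 against 0.02 and a background of 34.6% rising and 32.3% falling. In KO 20 rose, 5 fell and 12 did not pass in CMS, with a median of 0.23 and a background of 30.8% and 30.7%. Between CMS and FBS 0 of the 37 rose and 2 fell in WT (background 3.91% and 5.03%), and 3 rose and 1 fell in KO (background 6.73% and 8.09%). Counted in either direction, 73% of the 37 passed in each WT comparison and 64.9% and 67.6% in the KO comparisons, close to the backgrounds of 66.4% to 66.8% and 59.8% to 61.5%.

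All 9 genes for the proteases and subunits that process the receptor were lower in KO than in WT in SSt, with a median log2 fold change of -0.38, where 23.2% of all tested genes were lower. In FBS 1 of the 9 was higher and 1 lower in KO, and in CMS 2 were higher and 0 lower, 22.2% of the 9 in each against 25.7% and 39.7% of all tested genes. The WT response minus the KO response was negative and past the threshold for 7 of 9 in FBS and 8 of 9 in CMS, against 18.5% and 21.6% of all tested genes. Psen2, a catalytic subunit of the gamma-secretase that makes the final cut, was at 22.8 ± 0.689 FPKM (SD, n = 3) in WT SSt and 9.09 ± 1.72 in KO SSt. It rose to 40.2 ± 1.81 in WT FBS and 37.5 ± 3.09 in WT CMS, and to 36.8 ± 3.28 in KO FBS and 42.7 ± 1.83 in KO CMS. Its log2 fold change in KO was 2.08 ± 0.14 in FBS (adjusted p = 4.4e-06) and 2.34 ± 0.14 in CMS (adjusted p = 1.81e-06), and the CMS responses differed by -1.66 ± 0.16 (adjusted p = 1.56e-06). Without KO FBS replicate 1 the KO FBS value of Psen2 was 1.98 ± 0.14 (adjusted p = 5.17e-06). Furin, the convertase that makes the first cut, fell from 129 ± 2 FPKM in WT SSt to 44.3 ± 0.429 in FBS and 44.4 ± 1.21 in CMS, a log2 fold change of -1.57 ± 0.03 and -1.56 ± 0.03 (adjusted p = 9.13e-11 and 1.01e-10). In KO it fell less, from 74.3 ± 4.29 FPKM to 40.8 ± 8.36 and 49.3 ± 6.6, and the CMS responses differed by -1.08 ± 0.17 (adjusted p = 0.000114). Without KO FBS replicate 1 the KO FBS log2 fold change of Furin was -1.01 ± 0.11, 2.01-fold lower (adjusted p = 8.35e-05). Psenen, the most abundant gene of this class and another gamma-secretase subunit, was at 88.3 ± 3.45 FPKM in WT SSt and 64.9 ± 1.57 in KO SSt, and rose in KO by 0.52 ± 0.05 in FBS (adjusted p = 2.28e-05) and 0.65 ± 0.05 in CMS (adjusted p = 4.61e-06).

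Among the enzymes that add sugars to the receptor, Lfng, which alters the receptor's preference for its ligands, fell furthest. It was at 19.5 to 20.5 FPKM in WT SSt, at 8.25 to 10.1 in WT FBS and at 5.45 to 7.28 in WT CMS. It was at 20.8 to 21.1 in KO SSt, 5.41 to 9.72 in KO FBS and 2.59 to 3.30 in KO CMS. None of these groups overlapped with another of the same genotype. The log2 fold change over SSt was -1.18 ± 0.11 in WT FBS (adjusted p = 4.61e-06) and -1.71 ± 0.11 in WT CMS (adjusted p = 3.31e-07). It was -1.31 ± 0.19 in KO FBS (adjusted p = 0.000376) and -2.67 ± 0.20 in KO CMS (adjusted p = 5.89e-06). Without KO FBS replicate 1 the KO FBS value was -1.10 ± 0.11 (adjusted p = 4.03e-05). As for Notch1, the CMS response differed between genotypes (0.96 ± 0.23, adjusted p = 0.00342) and the FBS response did not pass the test (0.11 ± 0.23, adjusted p = 0.739). Poglut1, the most abundant gene of the class, which adds glucose to the receptor, fell in all 4 comparisons, by -0.23 ± 0.04 to -0.32 ± 0.07.

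In the nuclear complex, Rbpj itself was at 78.3 ± 0.755 FPKM in WT SSt, 79 ± 0.681 in WT FBS and 68.5 ± 2.13 in WT CMS. In KO it was at 65.2 ± 1.37 in SSt, 98.3 ± 31 in FBS and 104 ± 18.3 in CMS. It fell in WT CMS (-0.22 ± 0.03, adjusted p = 6.33e-05), and rose in KO in FBS (0.66 ± 0.22, adjusted p = 0.0275) and in CMS (0.78 ± 0.22, adjusted p = 0.0124). The responses differed by -0.70 ± 0.24 for FBS (adjusted p = 0.0317) and by -1.0 ± 0.24 for CMS (adjusted p = 0.00276). Without KO FBS replicate 1 the rise of Rbpj in KO FBS was 0.35 ± 0.13 (adjusted p = 0.0499) and the FBS responses differed by -0.38 ± 0.14 (adjusted p = 0.0447). Tle3, a co-repressor of the Groucho family that HES proteins recruit, rose in all 4 comparisons, by 1.02 ± 0.06 in KO FBS to 1.67 ± 0.06 in KO CMS (adjusted p from 1.27e-09 to 1.37e-06). Of the genes for trafficking and turnover, Dtx4, a ubiquitin ligase that acts on Notch, rose from 3.57 ± 0.747 FPKM in WT SSt to 16.1 ± 1.19 in FBS and 15.2 ± 0.423 in CMS, log2 fold changes of 2.14 ± 0.13 and 2.06 ± 0.13 (adjusted p = 2.13e-07 and 2.7e-07). In KO it rose from 3.2 ± 0.238 FPKM to 11.1 ± 3.24 and 8.05 ± 0.547, log2 fold changes of 1.85 ± 0.19 and 1.44 ± 0.18 (adjusted p = 4.09e-05 and 0.000145). Without KO FBS replicate 1 the KO FBS value was 2.05 ± 0.11 (adjusted p = 1.18e-06). Dtx4 was then lower in KO CMS than in KO FBS (-0.61 ± 0.11, adjusted p = 0.00426). The CMS response of Dtx4 differed between genotypes (0.62 ± 0.23, adjusted p = 0.0424), and the FBS response did not pass the test (0.27 ± 0.23, adjusted p = 0.398). Numbl, a relative of the Notch antagonist Numb and the most abundant of that class by the rule used here, rose by 0.21 ± 0.05 in WT FBS (adjusted p = 0.00494). Without KO FBS replicate 1 Numbl also rose in KO, by 0.28 ± 0.07 in FBS (adjusted p = 0.00648) and 0.20 ± 0.06 in CMS (adjusted p = 0.0171). Hes6, a HES gene that counteracts Hes1, rose where Hes1 fell, by 1.32 ± 0.07 in WT FBS (adjusted p = 6.16e-08) and 1.23 ± 0.07 in WT CMS (adjusted p = 9.67e-08). In KO it rose by 1.31 ± 0.13 in FBS (adjusted p = 3.57e-05) and 1.10 ± 0.13 in CMS (adjusted p = 8.32e-05). Without KO FBS replicate 1 the KO FBS value was 1.40 ± 0.12 for Hes6 and 1.06 ± 0.05 for Tle3. It was 0.51 ± 0.05 for Psenen and -0.36 ± 0.07 for Poglut1.

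The other receptor and ligands, Notch4, Jag2, Dll3, Dll4, Dlk1 and Dlk2, did not pass the filter. Dlk2, the most abundant of them at a mean of 0.317 FPKM over the 18 libraries, was at 0.979 ± 0.194 FPKM in WT SSt and 0.769 ± 0.561 in KO SSt and at 0.128 ± 0.117 or less elsewhere. Dll4 was at 0 in 17 of 18 libraries.

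**Figure D4:**
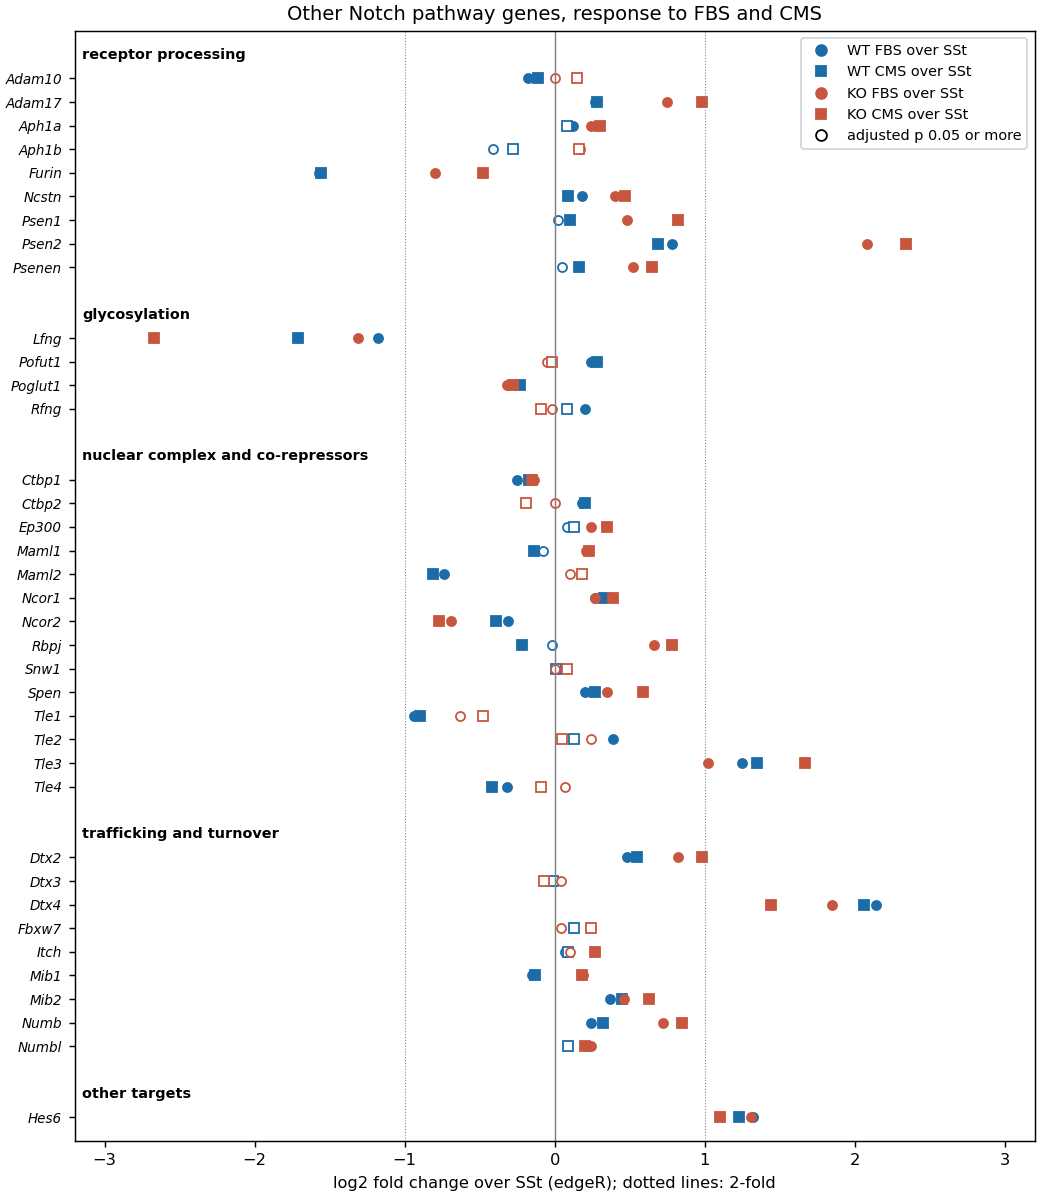
Log2 fold change over SSt (horizontal axis, edgeR, dotted lines at a fold of 2) of the tested genes among the other 53 Notch pathway genes, by role, circles for FBS and squares for CMS, WT in blue and KO in red, with open symbols for an adjusted p of 0.05 or more. Lfng lies to the left and Tle3, Dtx4 and Hes6 to the right in all 4 comparisons, and Psen2 passes a fold of 2 in KO only.

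The genes whose pattern over the 6 groups was most like each of the 4 more abundant genes were found from the root mean square difference of centred group means of log2 CPM, over 18 libraries. They were Cndp1 (0.0757), Ehd4 (0.0763) and Dusp6 (0.102) for Notch1, whose own means spanned 1.55 on the log2 scale. For Jag1, which spanned 2.05, they were Tlr7 (0.0756), Fcgr2a (0.0786) and LOC108348047 (0.0984), and for Hes1, which spanned 1.16, Abhd2 (0.0572), Cnst (0.0625) and Nudt13 (0.087). For Notch2, which spanned only 0.152, the differences were as small as 0.0199 for Luc7l and 0.0283 for LOC683897.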

How the data were processed

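The authors deposited one table per genotype, each with 32623 genes and 9 libraries. In both, the authors give reads per gene as raw counts, deposited as whole numbers without normalisation. Beside them the authors deposited FPKM values, corrected for transcript length and library depth, where 0.0001 stands for a count of 0 and was read as 0 here. In the submitters' processing notes Bowtie 0.12.2 is listed beside the mouse build mm10, although all gene identifiers come from the rat Ensembl annotation. The role of each is not given in the sources used here, so no coordinates of the tables were used.

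Counts were fitted with edgeR 4.0.16 (R 4.3.3), TMM scaling and the quasi-likelihood F test, within each genotype's 3 groups for the treatment responses and over all 18 libraries for responses and levels between genotypes. Genes reaching 1 FPKM in 3 libraries were tested, 12916 in WT, 12888 in KO and 13317 together, with Benjamini-Hochberg adjustment over all of them in each of 11 comparisons. The fits were tested on simulated data. The 9 genes, the 53 further pathway genes and the cell type markers were chosen with earlier results of these data known. Named are all 9 genes, pathway genes past an adjusted p of 0.05 and a fold of 2 against SSt, the most abundant gene of each role, and the 3 genes of most like pattern, of which 1 is not reported here. Alternatives were DESeq2 1.42.0, limma 3.58.1 on log2(FPKM + 1) and log2(FPKM + 0.1), other filters and scalings, the replicate number as a block, and each library left out in turn. The fits with no filter for genes below the limit and the fold limit were added after seeing the data. Sequences are from RefSeq (GRCr8). Depth of at least 56.08 M counts per library leaves genes near 0 imprecise, and a count of 0 allows 3 counts. Small RNA was not analysed here.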

Additional observations from a re-analysis of the deposited data

Results flagged for a closer look

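For 7 results the response of WT and KO cells to the same treatment differed by a test of the difference itself, the WT log2 response minus the KO response in the fit of all 18 libraries (edgeR, adjusted over 13317 genes). Jag1 differed by -1.99 ± 0.22 for FBS (adjusted p = 1.31e-05) and by -2.25 ± 0.22 for CMS (adjusted p = 2.22e-06). Dll1 differed by -2.48 ± 0.26 for FBS (adjusted p = 8.12e-06) and by -2.33 ± 0.26 for CMS (adjusted p = 6.07e-06). Dll1 passed the filter only through the KO FBS libraries, where it was highest; with no filter the values were -2.49 ± 0.27 (adjusted p = 1.02e-05) and -2.36 ± 0.27 (adjusted p = 7.23e-06). For both ligands KO SSt libraries were below WT SSt libraries and KO FBS and CMS libraries rose, and the differences kept their sign and their call in every fit that left out a library. Notch1 differed by 0.54 ± 0.11 for CMS (adjusted p = 0.000952). Notch2, at 0.21 ± 0.07 (adjusted p = 0.0183), and Hes1, at 0.46 ± 0.16 (adjusted p = 0.0322), differed for CMS by smaller margins, and both calls were lost when no filter was used. The FBS and CMS responses share their SSt libraries, so the values for one treatment are not independent of those for the other.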

How the results depend on the processing

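Of 458 values under other settings, 420 kept their direction and their side of the threshold, 5 lost a call, 23 gained one and 10 changed sign; of 864 values with 1 library left out, 823, 11, 15 and 15 did so. The counts of the 9 genes past that threshold that moved by over 1.5 times were as follows. With no filter, 4 genes passed in WT CMS against SSt (2 with it) and 3 in the CMS response WT minus KO (5). With the stricter filter of 5 FPKM, which leaves out Dll1 throughout, Jag1 in WT and Hes1 in KO, 2 passed in KO FBS against SSt and 2 in KO CMS against SSt (4 in each), 1 in the FBS response WT minus KO (2) and 0 in KO against WT in FBS (1). With DESeq2, 2 passed in KO CMS against FBS (1) and 2 in KO against WT in FBS. With 1 library left out, the count ran from 1 to 2 in KO CMS against FBS (2 without KO FBS replicate 1), from 3 to 5 in the CMS response (3 without KO CMS replicate 3) and from 1 to 3 in KO against WT in FBS (3 without KO FBS replicate 2). All other counts of the 9 genes past an adjusted p of 0.05 moved by 1 gene at most. Among them, WT FBS against SSt was at 3 with no filter and with DESeq2 (2 in the fit reported), and with 1 library left out the count ran from 2 to 3 in WT FBS and in WT CMS against SSt, from 4 to 5 in KO CMS against SSt and in KO against WT in CMS, and from 3 to 4 in KO against WT in SSt. The cause was not tested.

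The values that changed sign were all close to 0. For Notch2 in WT FBS against SSt the value was 0.02 under the stricter filter and 0.03 with library totals and with limma at either pseudocount, and -0.03 to 0.01 with 1 library left out. For Notch2 in KO FBS against SSt it was 0.01 under the stricter filter, and -0.04 to 0.04 with 1 library left out. For Notch2 in the FBS response it was 0.00 under the stricter filter and 0.09 with library totals and with limma at either pseudocount, and -0.06 to 0.02 with 1 library left out. Jag1 in WT CMS against FBS was 0.00 with no filter, and -0.08 to 0.05 with 1 library left out, and Notch1 in the same comparison ran from -0.12 to 0.01. Notch3 ran from -0.11 to 0.27 in KO CMS against FBS and from -0.03 to 0.89 in KO against WT in CMS.

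Library totals in place of TMM moved the median log2 difference of all tested genes from 0.01 to 0.12 in the FBS response and from 0.05 to 0.19 in the CMS response, and to -0.11 in KO CMS against SSt. The share of calls that were higher went from 48.2% to 64.6% in the FBS response, from 51.7% to 68.6% in the CMS response, from 50.1% to 40% in KO CMS against SSt, from 45.4% to 31.2% in KO CMS against FBS, from 51% to 62.5% in KO against WT in SSt and from 47.1% to 33.3% in KO against WT in CMS.

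With the replicate number as a block, 2 genes passed in KO against WT in FBS (1 without it), the added one being Notch2 at 0.13 (adjusted p = 0.0475), and Notch2 passed in KO against WT in SSt at 0.12 (adjusted p = 0.0434); the block changed no other call of the genes past the filter among the 9. Of the further pathway genes, 2 in place of 4 passed in KO CMS against FBS. Deviations of same-numbered libraries correlated at -0.24 to 0.17, so no strong shared effect of the replicate number was seen. These correlations cannot show whether same-numbered libraries came from one animal or culture. Depth limits Notch3, Hey1, Hey2 and Heyl, for which 3 counts stand for 0.00547 to 0.0514 FPKM.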
